A study of Homo sapiens with 10 samples.

Results

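FGF21, the insulin receptor substrates IRS1 and IRS2, the receptors INSR, IGF1R and IGF2R, the binding proteins IGFBP2 and IGFBP3, and the transcription factors FOXO1 and FOXO3 were examined in LNCaP-C4-2 prostate cancer cells in which CPT1A had been lowered or raised. These 10 genes were picked by name, as the hormone and the parts of insulin and insulin-like growth factor (IGF) signalling listed for this work, out of 57353 gene symbols in the count table, and all 10 were among the 17230 genes that passed the filter on low counts. LNCaP-C4-2 is a castration-resistant derivative of the LNCaP prostate cancer line. CPT1A is the enzyme of the outer mitochondrial membrane that admits long-chain fatty acids to oxidation. The knockdown (KD, n = 3) carried an shRNA against CPT1A and its control (NT, n = 2) a non-targeting shRNA. The overexpressing cells (OE, n = 3) carried the CPT1A reading frame and their control (EV, n = 2) the empty vector. KD cells were selected with puromycin and OE cells with blasticidin. The drug used for the controls, and whether any was present at harvest, is not stated. Each manipulation rests on 1 construct and 1 stably selected line, and the cells were grown in a serum-containing medium to which insulin had been added, so every library comes from cells exposed to insulin.

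Insulin and IGF1 bind receptor tyrosine kinases of the same family, which phosphorylate IRS1 and IRS2, and these recruit PI3-kinase and thereby AKT. AKT phosphorylates the FOXO factors and keeps them out of the nucleus, and in many tissues nuclear FOXO raises transcription of INSR and IRS2. IGF-binding proteins hold IGFs in the extracellular fluid, and the mannose 6-phosphate receptor IGF2R clears IGF2. FGF21 is a hormone of fasting, secreted above all by the liver, that acts through an FGF receptor together with the co-receptor beta-klotho (KLB). Its gene is also a target of ATF4, the transcription factor of the integrated stress response. In the prostate, IGF1R signalling is a growth and survival pathway of the epithelium.

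The libraries held 23555205 to 28615770 counts assigned to genes, and levels are given in CPM, counts per 1000000 counts of a library after scaling with TMM factors. At this depth 3 counts correspond to between 0.0995 and 0.136 CPM. CPT1A itself followed the labels, at 263.6 ± 2.65 CPM (SD, n = 2) in NT, 84.6 ± 2.92 (n = 3) in KD, 321.7 ± 5.67 (n = 2) in EV and 881.6 ± 28.2 (n = 3) in OE cells. All 7 prostate luminal markers reported here (KLK2, KLK3, HOXB13, TMPRSS2, FOLH1, KRT8 and KRT18) were above the filter, with 5 higher and 2 lower in OE against EV and 6 higher and 1 lower in KD against NT. By the test described below, 52.0% of all tested genes differed in OE against EV and 57.5% in KD against NT. The summed level of the luminal markers was 5432 to 5712 CPM over the NT samples, 7571 to 8340 over KD, 7217 to 7591 over EV and 10460 to 10900 over OE. Of 9 markers of leukocytes, endothelium, fibroblasts and basal epithelium, PECAM1 and KRT5 were at 0 in every sample, PTPRC, CD68, DCN and TP63 were below the filter, and COL1A1, COL3A1 and KRT14 gave most of a sum that ran from 9.71 to 11.7 CPM in NT and EV, 12.1 to 14.2 in OE and 17.6 to 19.1 in KD. COL1A1 and KRT14 passed the test in OE against EV and all 3 in KD against NT, each of them higher. The part of these marker differences in the results below was not tested. Nothing states that replicates were grown as separate cultures, so the p-values measure the spread between these samples, which may be technical.

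The DNA just upstream of 4 of the genes is shown because they include the hormone gene, both substrates and the receptor whose level moved most. The sequences are RefSeq's for GRCh38.p14, written 5′ to 3′ on the strand of the gene up to the last base before its start site. Capitals mark every match, on either strand, to 4 short motifs: TGATGNAA, the core of the amino acid response element bound by ATF4 with a C/EBP partner, GTAAACA, a FOXO site, CAAAACA, the core of the insulin response sequence, also bound by FOXO factors, and GGGCGG, the GC box bound by SP1. FGF21 lies on the plus strand of chromosome 19 and FUT1, a fucosyltransferase gene, on the minus strand, head to head, so the FGF21 sequence is the whole of the interval between them. IRS1 and IRS2 are read from the minus strand and IGF1R from the plus strand, 250 bases each.
FGF21 upstream, chr19:48755391-48755523: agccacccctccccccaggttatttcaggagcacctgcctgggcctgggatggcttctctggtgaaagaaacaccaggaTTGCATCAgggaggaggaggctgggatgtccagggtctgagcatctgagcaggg
IRS1 upstream, chr2:226799821-226800070: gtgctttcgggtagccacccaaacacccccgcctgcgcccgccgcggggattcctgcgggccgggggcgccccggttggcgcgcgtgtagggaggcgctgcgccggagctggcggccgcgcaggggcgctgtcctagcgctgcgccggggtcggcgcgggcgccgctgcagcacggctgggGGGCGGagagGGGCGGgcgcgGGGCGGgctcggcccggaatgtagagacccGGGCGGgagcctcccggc
IRS2 upstream, chr13:109786584-109786833: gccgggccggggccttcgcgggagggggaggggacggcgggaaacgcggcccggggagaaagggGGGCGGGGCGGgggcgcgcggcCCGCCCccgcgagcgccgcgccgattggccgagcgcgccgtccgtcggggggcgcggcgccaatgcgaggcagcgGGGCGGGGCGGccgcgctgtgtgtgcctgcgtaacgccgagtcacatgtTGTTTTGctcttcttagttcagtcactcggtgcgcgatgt
IGF1R upstream, chr15:98648289-98648538: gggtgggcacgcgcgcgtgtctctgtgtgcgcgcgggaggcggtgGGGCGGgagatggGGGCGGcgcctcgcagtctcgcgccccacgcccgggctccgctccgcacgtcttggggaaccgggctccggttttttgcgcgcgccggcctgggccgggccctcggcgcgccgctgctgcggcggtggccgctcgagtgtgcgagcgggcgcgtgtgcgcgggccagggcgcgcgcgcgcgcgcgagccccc

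In the FGF21 interval the only match was TTGCATCA, the reverse complement of a TGATGNAA match, beginning 54 bases before the FGF21 start site. Of 35116 upstream windows of 250 bases in the RefSeq table, in which a gene can have several, 3.14% held this motif. IRS2 held TGTTTTG, a reverse-strand match to CAAAACA, 40 bases before its start site, as did 4.3% of all windows, and 5 GC boxes, some of which overlap each other. IRS1 held 4 GC boxes and IGF1R held 2, against 42.6% of all windows with at least 1. The FOXO motif GTAAACA was found in 2.98% of all windows and in none of the windows of the 10 genes. A match says only that these letters occur there.

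Across the 5 comparisons the design allows, most of these genes differed, in cells where a large share of all genes did. A gene passed the test at an adjusted p under 0.05 in edgeR's quasi-likelihood F test with Benjamini-Hochberg adjustment over all 17230 genes. In OE against EV, 8 of the 10 passed, 4 higher and 4 lower, where 52.0% of all genes passed. In KD against NT, 8 passed, 3 higher and 5 lower, against 57.5% of all genes. The difference between those 2 changes, OE against EV minus KD against NT, is called the interaction below, and in it 8 passed, 4 with a positive and 4 with a negative difference, against 44.3%. The 2 controls differed from each other in 6 of the 10, 5 higher in EV and 1 lower, against 34.1%, and OE differed from KD directly in 7, each of them higher in OE, against 59.8%. That last split rested on the scaling: by library totals alone 6 passed, with FGF21, IRS1, IRS2 and IGFBP3 higher in OE, FOXO1 and FOXO3 lower, and IGF1R, IGF2R and IGFBP2 no longer passing. These comparisons share samples and are not independent of each other. The median absolute log2 fold change of the 10 genes was 0.42 in OE against EV, where it was 0.32 over all tested genes, and 0.63 in KD against NT, where it was 0.36. It was 0.59 against 0.37 in the interaction and 0.35 against 0.23 in EV against NT. In OE against KD it was the smaller, at 0.21 against 0.35 over all tested genes. Since the RNA is from whole cultures, fewer cells of a type and less RNA per cell cannot be told apart.

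**Figure D1:**
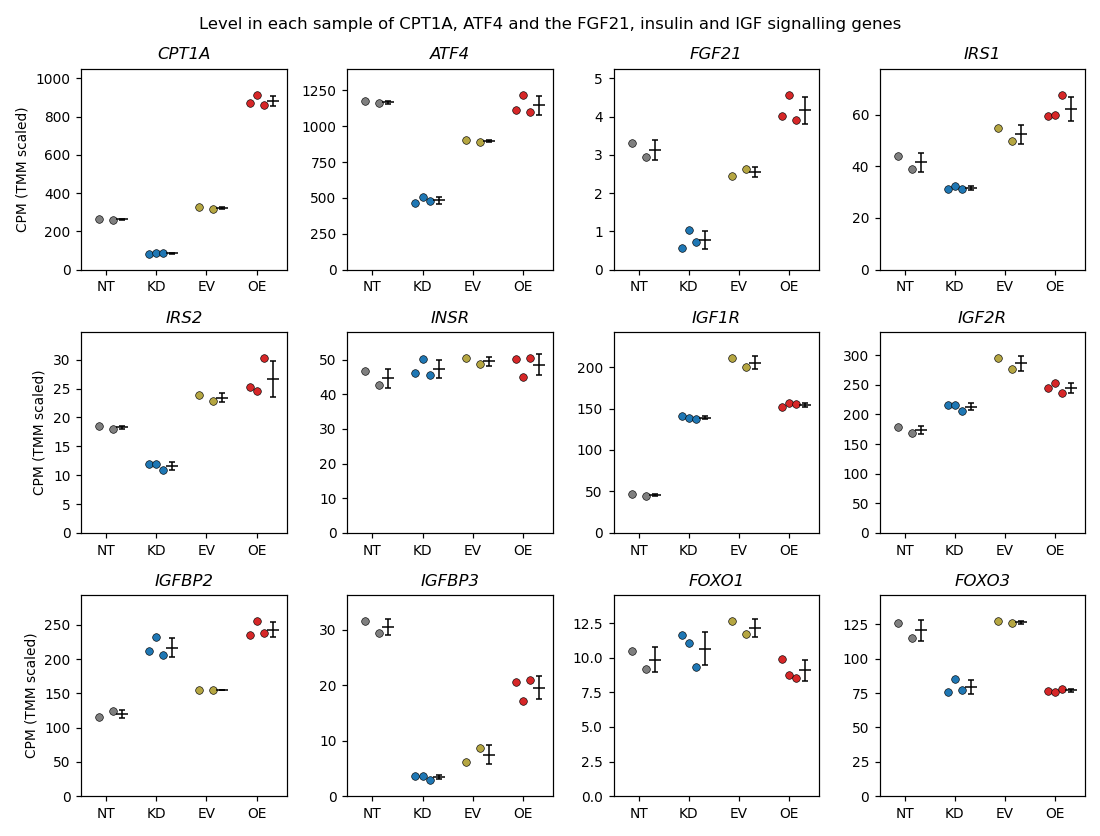
Level of CPT1A, ATF4 and each of the 10 genes in every sample, in TMM-scaled CPM on an axis from 0, with a panel per gene, a point per library and, beside the points, the group mean with a bar of 1 SD, for NT, KD, EV and OE cells. FGF21 and IGFBP3 were lowest in the 3 KD samples, IGF1R was lowest in the 2 NT samples, and the INSR points of each group overlap those of its neighbours in level.

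FGF21 fell with the knockdown and rose with overexpression. It was a weakly expressed transcript, at 3.32 and 2.94 CPM in NT (88 and 74 counts), 0.575, 1.03 and 0.730 in KD (15, 26 and 22 counts), 2.46 and 2.64 in EV (63 and 65 counts) and 4.03, 4.57 and 3.91 in OE (101 counts in each library). The 3 KD samples lay below, and the 3 OE samples above, every control sample. The fall in KD against NT was −2.01 ± 0.217 on the log2 scale (SE, edgeR adjusted p = 2.53e-08), a 4.04-fold decrease, and the rise in OE against EV was 0.71 ± 0.175 (edgeR adjusted p = 0.00153), a 1.63-fold increase. The interaction was 2.72 ± 0.279 (edgeR adjusted p = 2.69e-08). The controls, in contrast, were not separated by the test, with EV minus NT at −0.30 (95% confidence interval −0.705 to 0.107, edgeR adjusted p = 0.259). Ranked by absolute change, FGF21 in KD against NT exceeded 98% of all tested genes, and in OE against EV 83.5%.

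FUT1, the gene on the other side of the shared upstream sequence, was higher in OE than EV by 0.46 (edgeR adjusted p = 0.000158) and lower in KD than NT by 1.05 (log2 fold change −1.045, edgeR adjusted p = 1.35e-09). It averaged 27.8 CPM in OE and 20.3 in EV, and 11.3 in KD and 23.4 in NT. No exon of FGF21 overlapped an exon of FUT1 or of another gene in the table, so reads from FUT1 within its annotated exons do not fall in FGF21.

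Of 8 factors known to act on FGF21 transcription, CREB3L3 and NR1H4 were at 0 or 1 count. Of the 6 tested, ATF4 and XBP1 rose and MLXIPL, PPARA and RORA fell in OE against EV, and 5 fell in KD against NT (ATF4, DDIT3, MLXIPL, RORA and XBP1). Over all tested genes, 52.0% passed in OE against EV and 57.5% in KD against NT. The median log2 fold change of the 6 was −0.03 in the first comparison and −0.97 in the second, beside −0.02 over all genes in both. ATF4 was at 1174 and 1160 CPM in NT, 463.9, 507.9 and 477.4 in KD, 903.8 and 890.9 in EV and 1115, 1219 and 1101 in OE. Its 3 KD values were below those of all other samples, while its OE values were above EV and overlapped NT. The fall with the knockdown was −1.27 (edgeR adjusted p = 3.12e-16) and the rise with overexpression 0.35 (edgeR adjusted p = 3.47e-06). DDIT3, which encodes the stress-response factor CHOP, was 2.83 lower on the log2 scale in KD (log2 fold change −2.829, edgeR adjusted p = 1.94e-18), whereas its value in OE against EV was 0.09 (edgeR adjusted p = 0.343). XBP1, a factor of the unfolded protein response, changed by 0.62 in OE (edgeR adjusted p = 3.89e-09) and by −0.67 in KD (log2 fold change −0.665, edgeR adjusted p = 3.43e-10).

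The receptors for FGF21 were present at low to moderate levels. Of the 4 FGF receptors, the 2 klotho co-receptors and the other endocrine FGFs, FGF19 was at 0 in every sample and FGF23 at 2 counts or fewer, and the other 6 were tested. KLB, which FGF21 requires, averaged 3.53 CPM in OE and 2.70 in EV, and 2.15 in KD and 2.67 in NT. Neither change passed the test (0.39 in OE against EV, edgeR adjusted p = 0.0913, and −0.32 in KD against NT, edgeR adjusted p = 0.182), although the difference between them did (0.71, edgeR adjusted p = 0.0413). FGFR3 rose with both manipulations, by 0.37 in OE (edgeR adjusted p = 0.00315) and by 2.13 in KD (edgeR adjusted p = 8.76e-14). FGFR2 fell with both manipulations, by 1.67 in OE (log2 fold change −1.672, edgeR adjusted p = 8.64e-08) and by 1.06 in KD (log2 fold change −1.055, edgeR adjusted p = 8.54e-06). FGFR1, at a mean of 26.5 to 31.0 CPM, rose in OE (0.20, edgeR adjusted p = 0.0423). FGFR4 rose in KD (0.57, edgeR adjusted p = 8.78e-05) and its value in OE against EV was −0.20 (edgeR adjusted p = 0.138). KL, the co-receptor for FGF23, rose in KD by 2.33 (log2 fold change 2.325, edgeR adjusted p = 0.000805) but on 2 to 22 counts per library. The median of the 6 genes was 0.17 in OE against EV and 0.22 in KD against NT.

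IRS1 and IRS2, which carry the signal from the insulin and IGF1 receptors to PI3-kinase, were both lowest in KD cells. IRS1 was at 44.1 and 39.0 CPM in NT, 31.1, 32.4 and 31.3 in KD, 55.0 and 49.8 in EV and 59.6, 59.7 and 67.7 in OE. No 2 groups overlapped, and the order was KD, NT, EV, OE. The knockdown lowered IRS1 by 0.40 (log2 fold change −0.397 ± 0.0712, edgeR adjusted p = 4.01e-05), overexpression raised it by 0.25 ± 0.0678 (edgeR adjusted p = 0.00329), and the interaction was 0.65 ± 0.0984 (edgeR adjusted p = 8.67e-06). The rise in OE was 1.19-fold and depended on single choices. Without EV replicate 2 it was 0.18 (edgeR adjusted p = 0.1), and when libraries were scaled by their totals alone it was 0.15 (edgeR adjusted p = 0.0674).

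IRS2 was at 18.5 and 18.1 CPM in NT, 11.99, 11.99 and 10.85 in KD, 23.98 and 22.92 in EV and 25.3, 24.6 and 30.3 in OE. The KD samples were again the lowest, and the third OE sample stood above the other OE samples. The fall with the knockdown was −0.66 ± 0.0934 (edgeR adjusted p = 1.74e-06), whereas the change with overexpression did not pass, at 0.19 ± 0.0851 (95% confidence interval 0.0145 to 0.366, edgeR adjusted p = 0.0646). Whether IRS2 differed between OE and EV turned on the setting. Its value was 0.25 without OE replicate 2 (edgeR adjusted p = 0.0258) and 0.09 without OE replicate 3 (edgeR adjusted p = 0.394), while it also passed without OE replicate 1 (0.23, edgeR adjusted p = 0.0463) or KD replicate 2 (0.19, edgeR adjusted p = 0.0354), with DESeq2 size factors (0.20, edgeR adjusted p = 0.048) and with each arm fitted alone (0.19, edgeR adjusted p = 0.036). With the GC correction it was −0.0151 (edgeR adjusted p = 0.895). The interaction was 0.85 ± 0.126 (edgeR adjusted p = 6.87e-06). Over the 10 samples the log2 levels of the 2 substrates were correlated (Pearson r = 0.981, a description over 4 groups of libraries). FGF21 was correlated with IRS2 (r = 0.909) and IRS1 (r = 0.882) over the same samples.

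**Figure D2:**
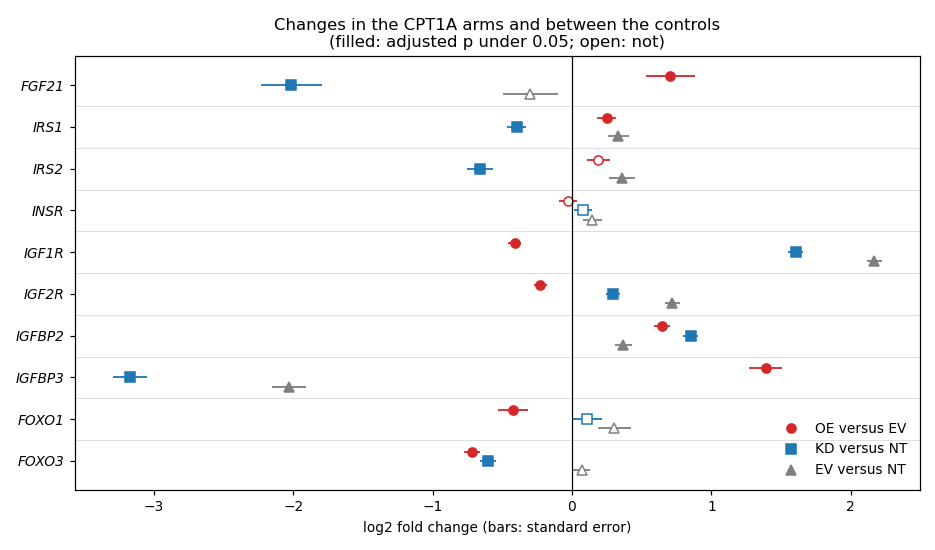
Log2 fold change of the 10 genes in OE against EV (circles), KD against NT (squares) and EV against NT (triangles), with bars of 1 standard error from the edgeR fit, filled where the gene passed the test and open where it did not. FGF21, IRS1 and IGFBP3 lie to the right of 0 in OE against EV and to the left in KD against NT, IGF1R and IGF2R lie the other way round, IGFBP2 is above 0 in both, FOXO3 below 0 in both, and the INSR points lie near 0 and are open. The EV against NT points of IGF1R and IGFBP3 lie farthest from 0 of that comparison.

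INSR, the insulin receptor, did not pass the test in any comparison. Its level was 46.6 and 42.7 CPM in NT, 46.2, 50.1 and 45.4 in KD, 50.4 and 48.6 in EV and 50.1, 45.1 and 50.4 in OE, and each group overlapped its neighbours in level. The change was −0.03 in OE against EV (95% confidence interval −0.16 to 0.108, edgeR adjusted p = 0.764) and 0.08 in KD against NT (−0.0547 to 0.214, edgeR adjusted p = 0.307). The interaction was −0.11 (−0.295 to 0.084, edgeR adjusted p = 0.372), and passed only with scaling by library totals alone (−0.24, edgeR adjusted p = 0.0355).

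IGF1R, the receptor for IGF1, differed most among the receptors, and the 2 controls were at its extremes. It was at 46.4 and 44.9 CPM in NT, 140.5, 138.9 and 137.7 in KD, 210.9 and 199.7 in EV and 151.3, 156.7 and 155.2 in OE. The groups did not overlap, in the order NT, KD, OE, EV. IGF1R therefore rose 3.04-fold in KD against NT (log2 fold change 1.605 ± 0.0513, edgeR adjusted p = 1.08e-17) and fell 1.33-fold in OE against EV (−0.41 ± 0.0452, edgeR adjusted p = 6.62e-08), with an interaction of −2.02 ± 0.0679 (edgeR adjusted p = 6.79e-17). The controls differed 4.49-fold, with EV above NT by 2.17 ± 0.0545 on the log2 scale (edgeR adjusted p = 7.63e-19), beside 1.605 in KD against NT and −0.41 in OE against EV. Compared without controls, OE exceeded KD by 0.15 ± 0.0412 (edgeR adjusted p = 0.0028), and this was 0.02 with scaling by library totals alone (edgeR adjusted p = 0.642) and 0.07 with a GC correction (edgeR adjusted p = 0.116). Per kilobase of exon, IGF1R was below INSR in NT cells (means of 3.28 and 4.12 CPM per kb) and above it in KD (9.97 and 4.36), EV (14.7 and 4.57) and OE cells (11.1 and 4.48). The antisense gene IRAIN, which begins 1150 bp from IGF1R on the other strand, had at most 4 counts in any library.

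IGF2R followed the same order at a smaller range. Its values were 178.8 and 168.3 CPM in NT, 216.5, 215.9 and 206.3 in KD, 295.1 and 277.1 in EV and 244.4, 252.9 and 235.9 in OE, again without overlap between groups. It rose by 0.29 ± 0.0493 in KD against NT (edgeR adjusted p = 1.7e-05) and fell in OE against EV (−0.23 ± 0.0481, edgeR adjusted p = 0.000338), while EV exceeded NT by 0.72 ± 0.0536 (edgeR adjusted p = 2.37e-10). The direct difference of OE from KD was 0.20 (edgeR adjusted p = 0.000353) and 0.07 when scaled by library totals alone (edgeR adjusted p = 0.126). The log2 levels of the 2 receptors were correlated over the 10 samples (r = 0.91), in which the NT and EV samples are the end points for both genes.

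IGF1 was the only ligand above the filter. INS was at 0 in all 10 libraries, and IGF2 and INSRR, the insulin receptor-related receptor, had at most 3 counts. IGF1 was at 3.40 and 3.57 CPM in NT, 13.5, 8.48 and 11.7 in KD, 6.51 and 7.83 in EV and 7.26, 7.06 and 7.62 in OE. Every KD sample was above every other sample, with a rise of 1.69 over NT (edgeR adjusted p = 3.62e-09). The value in OE against EV was 0.03 (edgeR adjusted p = 0.88), and IGF1, like IGF1R, was higher in EV than in NT (by 1.04).

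IGFBP3, the main carrier of IGFs in serum, had the largest change of the 10 genes in both manipulations. It was at 31.5 and 29.5 CPM in NT, 3.56, 3.67 and 2.99 in KD, 6.24 and 8.72 in EV and 20.5, 17.2 and 20.9 in OE. The NT samples were the highest and the KD samples the lowest, with the 4 groups apart. The knockdown lowered IGFBP3 9-fold (log2 fold change −3.17 ± 0.121, edgeR adjusted p = 1.84e-16) and overexpression raised it 2.62-fold (1.39 ± 0.12, edgeR adjusted p = 1.73e-09). The interaction was 4.56 ± 0.172 (edgeR adjusted p = 5e-16). The absolute change in KD was larger than that of 99.5% of tested genes, and that in OE larger than that of 96.6%. The empty-vector control itself was 4.09-fold below NT (−2.03 ± 0.124, edgeR adjusted p = 5.82e-12), so OE cells, although above EV, stayed below NT.

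IGFBP2, another binding protein, rose with both manipulations. It was at 116.1 and 124.1 CPM in NT, 211.6, 232.6 and 206.1 in KD, 155 and 155 in EV and 235, 255.1 and 237.6 in OE. All KD and OE samples were above all control samples, with a rise of 0.65 ± 0.0549 in OE against EV (edgeR adjusted p = 1.28e-09) and of 0.85 ± 0.0557 in KD against NT (edgeR adjusted p = 3.63e-12). The interaction was small, −0.21 ± 0.077 (edgeR adjusted p = 0.0327). It was lost with DESeq2's Wald test (−0.20, adjusted p = 0.0508) and on leaving out NT replicate 1 (−0.16, edgeR adjusted p = 0.183), EV replicate 1 (−0.19, edgeR adjusted p = 0.123), EV replicate 2 (−0.21, edgeR adjusted p = 0.0891), OE replicate 1 (−0.18, edgeR adjusted p = 0.0858) or OE replicate 3 (−0.19, edgeR adjusted p = 0.0678). Per kilobase IGFBP2 was the highest of the 10 genes in each group, with means of 51.2 CPM per kb in OE, 32.7 in EV, 45.7 in KD and 25.3 in NT. IGFBP3 means were 4.27, 1.64, 0.745 and 6.68 CPM per kb in the same order.

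The other IGF-binding proteins and their proteases were largely absent. Of 8 genes, 2 were above the filter. Neither passed in OE against EV, where 52.0% of all genes did, and both passed in KD against NT, where 57.5% did. IGFBP5 rose by 1.14 (log2 fold change 1.137, edgeR adjusted p = 8.92e-05) and IGFBP4 fell by 1.01 (−1.012, edgeR adjusted p = 0.0286), on 14 to 110 counts and 3 to 28 counts per library. Their median log2 fold change was −0.44 in OE against EV and 0.06 in KD against NT.

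FOXO3 fell with both manipulations. It was at 126.1 and 115 CPM in NT, 75.6, 85.2 and 77.6 in KD, 127.2 and 125.8 in EV and 76.8, 76.1 and 77.9 in OE. All 6 manipulated samples were thus below all 4 controls, while KD overlapped OE and NT overlapped EV. The change was −0.72 ± 0.0545 in OE against EV (edgeR adjusted p = 2.13e-10) and −0.60 ± 0.0543 in KD against NT (edgeR adjusted p = 1.15e-09). The interaction did not pass (−0.11, 95% confidence interval −0.275 to 0.0455, edgeR adjusted p = 0.243) except with scaling by library totals alone (−0.25, edgeR adjusted p = 0.00731). Of 6 rows that could share reads with a member, FUT1 and FOXO3B were above the filter, while AIRN was at 0 and FOXO1B, IRAIN and IRS3P had at most 6 counts in any library. FOXO3B, a FOXO3-like gene, stayed between 2.31 and 3.46 CPM and did not pass in any of the 3 comparisons (edgeR adjusted p = 0.51, 0.805 and 0.531 in OE against EV, KD against NT and the interaction). Over the 10 samples FOXO3 was inversely correlated with IGFBP2 (r = −0.899), the gene that rose with both manipulations.

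FOXO1 was expressed at a lower level and passed the test in OE against EV but not in KD against NT. It was at 10.5 and 9.21 CPM in NT, 11.7, 11.1 and 9.32 in KD, 12.6 and 11.7 in EV and 9.93, 8.78 and 8.55 in OE. EV was above OE in every sample, and NT overlapped both KD and OE. FOXO1 fell by 0.42 in OE against EV (log2 fold change −0.422 ± 0.11, edgeR adjusted p = 0.00248), and by 0.35 without EV replicate 1 (−0.3521, edgeR adjusted p = 0.0507). Its value in KD against NT was 0.11 (95% confidence interval −0.119 to 0.337, edgeR adjusted p = 0.413). The interaction was −0.53 ± 0.156 (edgeR adjusted p = 0.00751), −0.44 without NT replicate 2 (edgeR adjusted p = 0.0535) and −0.46 without EV replicate 1 (edgeR adjusted p = 0.0518). Per kilobase FOXO3 was the more abundant factor in each group, at means of 10 to 16.5 CPM per kb against 1.53 to 2.04 for FOXO1.

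Of 24 other FOXO factors and known FOXO targets, 20 were tested. In OE against EV 11 rose and 6 fell (median 0.23), where 52.0% of all genes passed in either direction. In KD against NT 6 rose and 8 fell (median −0.11), against 57.5% of all genes. FOXO4 rose in OE (0.38, edgeR adjusted p = 0.000404), and FOXO6 rose in both OE (0.87, edgeR adjusted p = 3.12e-06) and KD (0.71, edgeR adjusted p = 1.83e-05). CCNG2, which encodes cyclin G2, and FBXO32, a ubiquitin ligase of muscle atrophy, rose in OE (0.33, edgeR adjusted p = 1.69e-05, and 0.62, edgeR adjusted p = 9.64e-05) and fell in KD (−0.64, edgeR adjusted p = 2.7e-10, and −0.76, edgeR adjusted p = 8.54e-06). Between the controls, EV minus NT was −0.45 for CCNG2 (edgeR adjusted p = 2.2e-06) and −0.31 for FBXO32 (edgeR adjusted p = 0.0721). CCNG2 in OE, at a mean of 122 CPM, stayed below NT, at 132.6. The sestrin SESN3 fell in both, by 0.59 in OE (−0.5878, edgeR adjusted p = 5.14e-08) and by 1.03 in KD (−1.029, edgeR adjusted p = 9.39e-13), and SESN1 fell in OE (−0.85, edgeR adjusted p = 1.13e-09). TXNIP, an inhibitor of thioredoxin and of glucose uptake, rose in both. Its levels were 4.83 and 4.73 CPM in NT, 138.9, 136.8 and 146.7 in KD, 8.70 and 9.25 in EV and 46.0, 23.2 and 31.3 in OE. Both manipulated lines lay above their own control, with the 3 KD samples far above all others and the OE samples spread over a wide range, and the changes were 4.88 in KD (edgeR adjusted p = 1.51e-16) and 1.91 in OE (edgeR adjusted p = 4.65e-09).

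The 4 genes listed as stress-induced inhibitors of insulin and mTOR signalling moved in the same directions as FGF21. All 4 of the list (TRIB3, DDIT4, SESN2 and PPP1R15A) rose in OE against EV, with a median of 0.55, and all 4 fell in KD against NT, with a median of −1.31. Over all tested genes, 52.0% passed in OE against EV and 57.5% in KD against NT, in either direction. The other sestrins, listed with the FOXO targets, both fell in OE. Inhibitors in other lists were mixed, with AKT1S1 rising in both manipulations and GRB10 moving as these 4 did. TRIB3, a pseudokinase that binds AKT, changed by 0.65 (edgeR adjusted p = 5.59e-09) and −1.79 (edgeR adjusted p = 3.84e-17). SESN2, which restrains mTORC1, changed by 0.38 (edgeR adjusted p = 4.81e-06) and −1.72 (edgeR adjusted p = 3.72e-17). DDIT4, also called REDD1, changed by 0.49 (edgeR adjusted p = 9.06e-08) and −0.90 (edgeR adjusted p = 8.98e-13).

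**Figure D3:**
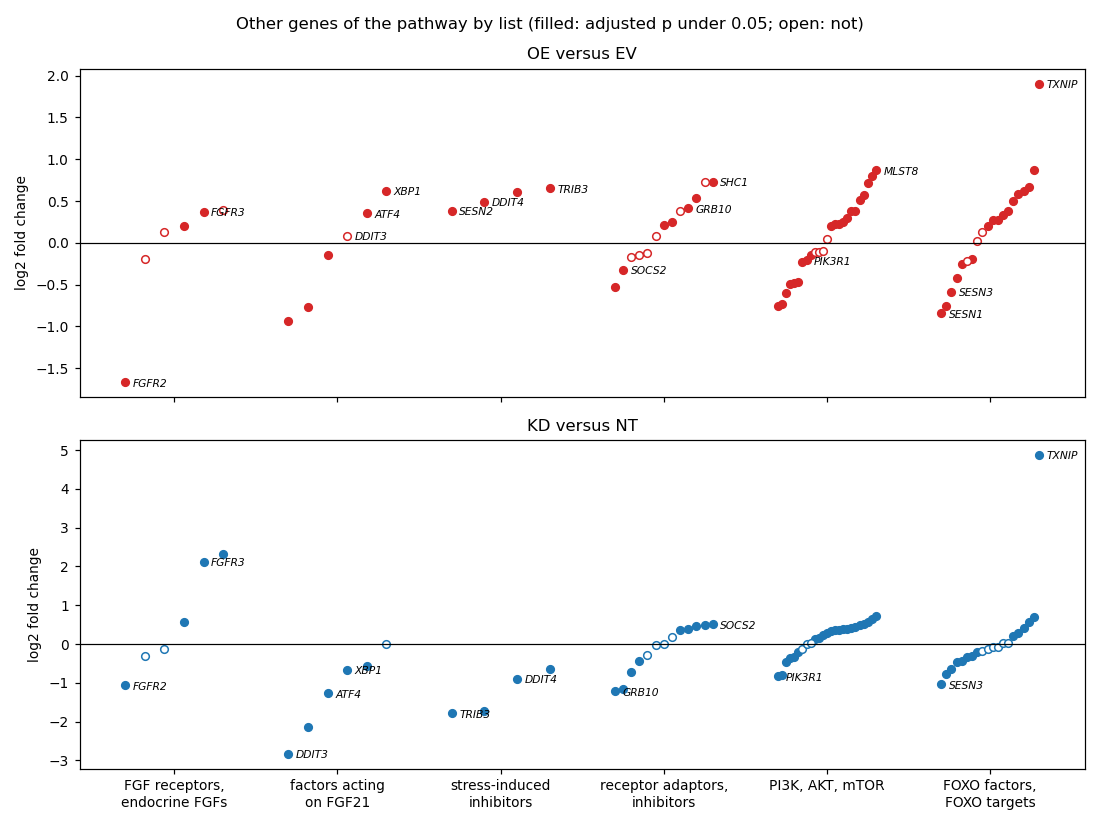
Log2 fold change of every tested gene of 6 of the surrounding lists, side by side and ordered by value within each list, in OE against EV (upper panel) and KD against NT (lower panel, on a wider scale), with filled points for genes that passed the test and open points for those that did not. The 4 stress-induced inhibitors lie above 0 in the upper panel and below 0 in the lower, whereas the PI3-kinase, adaptor and FOXO target lists hold points on both sides.

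Adaptors and inhibitors at the receptor did not move in a single direction. Of 14 genes 13 were tested, with 5 higher and 2 lower in OE against EV (median 0.21), where 52.0% of all genes passed in either direction. In KD against NT 5 were higher and 4 lower (median −0.00442), against 57.5% of all genes. GRB10, an adaptor that restrains insulin and IGF1 receptor signalling, rose by 0.41 in OE (edgeR adjusted p = 5.47e-07) and fell in KD (−1.22, edgeR adjusted p = 1.02e-15). SOCS2, a suppressor of cytokine and growth hormone signalling, did the reverse, falling in OE (−0.32, edgeR adjusted p = 0.000121) and rising in KD (0.51, edgeR adjusted p = 3.34e-07). The controls themselves differed in SOCS2, with EV above NT by 0.63 (edgeR adjusted p = 1.96e-07). They also differed in GRB10, with EV minus NT at −0.85 (edgeR adjusted p = 3.05e-11). GRB10 in OE, at a mean of 234.9 CPM, stayed below NT, at 318.6. SHC1, the adaptor towards the RAS pathway, rose in both, by 0.73 in OE (edgeR adjusted p = 1.01e-10) and 0.45 in KD (edgeR adjusted p = 1.09e-07). SH2B1, an adaptor that enhances receptor signalling, rose in OE (0.53, edgeR adjusted p = 1.07e-08), and its value in KD was −0.00442 (edgeR adjusted p = 0.95).

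Among 27 PI3-kinase, AKT and mTOR kinases, phosphatases, their subunits and other genes of that part of the pathway, 25 were tested. In OE against EV 12 rose and 9 fell (median 0.04), where 52.0% of all genes passed in either direction. In KD against NT 16 rose and 6 fell (median 0.29), against 57.5% of all genes. MTOR itself fell slightly in OE (−0.15, edgeR adjusted p = 0.00918) and rose in KD (0.56, edgeR adjusted p = 6.74e-10). The controls differed more in MTOR, with EV above NT by 0.79 (edgeR adjusted p = 3.05e-11). Compared directly, OE and KD were not separated in MTOR (0.08, edgeR adjusted p = 0.0933). MLST8, a subunit of both mTOR complexes, rose in OE by 0.87 (edgeR adjusted p = 1.04e-11) and in KD by 0.15 (edgeR adjusted p = 0.0204). AKT1S1, an inhibitory partner of mTORC1, rose in both (0.80, edgeR adjusted p = 1.11e-11, and 0.35, edgeR adjusted p = 2.36e-06). PIK3R1, the regulatory subunit that docks to IRS proteins, fell in both (−0.21, edgeR adjusted p = 0.00103, and −0.84, edgeR adjusted p = 3.48e-13). AKT1, the kinase at the centre of the pathway, rose in both (0.22, edgeR adjusted p = 0.000481, and 0.64, edgeR adjusted p = 6.4e-11).

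The genes whose levels followed each of the 10 most closely were ranked by Pearson correlation of log2 CPM over the 10 samples, among tested genes with an average log2 CPM of at least 1. With 10 samples in 4 groups, high coefficients arise for any gene with a like order of groups. The closest to FGF21 were VGLL4 (r = 0.994) and SQSTM1 (r = 0.993). For IRS1 they were PTTG1IP (0.989) and TRIM4 (0.988), and for IRS2 SARAF (0.996) and MORN4 (0.987). IGF1R was followed most closely by PIK3AP1 (0.995) and by MTOR (0.993), a gene of the PI3-kinase, AKT and mTOR list above, and IGF2R by EFCAB12 (0.977) and ABAT (0.9745). TEAD3 was among the closest to IGFBP2 (0.995). IGFBP3 was followed by CCNG2 (0.976) and GRB10 (0.975), 1 of them a gene of the FOXO target list and the other of the adaptor list. For FOXO3 they were MIR29B2CHG (0.985) and VPS41 (0.979). The coefficients were lower for INSR, with MCF2L (0.905) and ZADH2 (0.839), and for FOXO1, with MORC4 (0.904) and PRDM4 (0.874).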

How the data were processed

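RNA was sequenced from 10 samples (NT and EV, n = 2 each, KD and OE, n = 3 each). Per the study's methods, poly(A) libraries were read paired-end, adapters were trimmed with BBDuk, reads under 50 bp were dropped, and STAR 2.6.0a aligned and quantified the rest against hg38 with Ensembl annotation. The deposited values are the authors' raw counts per gene symbol, in 1 table. Strand setting and treatment of multimapped reads are not given in the sources used here.

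After filterByExpr and TMM scaling, a quasi-likelihood F test was run in edgeR 4.0.16 (R 4.3.3), with 1 mean per group over all 10 samples and Benjamini-Hochberg adjustment over 17230 genes. SE and 95% intervals come from the F statistic, and the intervals are not adjusted for the number of genes. The study's own limit for its comparisons, 0.0001, was an alternative, beside DESeq2 1.42.0, limma-voom (limma 3.58.1), other scalings and filters, a GC correction, a replicate block and leaving out each sample. The code was tested on simulated data. Levels per kilobase use GENCODE exon lengths, and upstream sequences and motifs RefSeq's GRCh38.p14 table. The members, gene lists and tests were chosen with earlier results of these data known.

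Named beyond the 10 genes were CPT1A and, in each list, up to 3 passing genes with the smallest interaction p and up to 2 in each of OE against EV and KD against NT, a fixed few (ATF4, DDIT3, KLB, IGF1, IGF2, INS), all markers and possible read-sharing rows, and the 2 closest genes by correlation. MLXIPL, PPARA, RORA, PPP1R15A, FGFR1, FOXO4, FOXO6, CREB3L3, NR1H4, FGF19, FGF23 and INSRR were added after their values were seen. A few genes of the lists and of the correlation ranking are not reported here, and list counts leave them out. No column of values was left unused.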

Additional observations from a re-analysis of the deposited data

How the results depend on the processing

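Of 920 values for single genes under alternative settings, 874 kept their direction and their side of the threshold, 19 lost and 19 gained the call and 8 changed sign. In KD against NT 189 of 190 kept both, and the calls of FGF21, IGFBP3, IGF1R and FOXO3 there and in OE against EV held under every alternative tried at the limit of 0.05. At a limit of 0.0001, 4 of the 10 genes passed in OE against EV (IGF1R, IGFBP2, IGFBP3 and FOXO3) and 4 in OE against KD. FGF21 did not pass that limit in OE against EV (edgeR adjusted p = 0.00153). With the GC correction its rise there was 0.52 (edgeR adjusted p = 0.0117). Leaving out 1 sample gave 7 to 9 passing genes in OE against EV, 8 to 8 in KD against NT, 6 to 8 in the interaction, 4 to 7 in EV against NT and 7 to 8 in OE against KD.

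The changes of sign were all in values that were small and mostly did not pass. With the GC correction, fitted on the 13992 genes (81.2%) with a value, IRS2 was at −0.0151 in OE against EV, INSR at −0.00569 in KD against NT and −0.0172 in OE against KD, and IGFBP2 at −0.0157 in OE against KD, where the main value passed. INSR in OE against KD was at −0.088 with scaling by library totals. Leaving out 1 sample, INSR in OE against EV ran from −0.0535 to 0.0247, above 0 without EV replicate 1 (0.0144) or OE replicate 2, and FOXO3 in OE against KD from −0.0744 to 0.00526, above 0 without KD replicate 2. The cause was not tested.

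Scaling by library totals alone moved the median log2 fold change of all genes to −0.117 in OE against EV, −0.151 in the interaction and −0.148 in OE against KD, from −0.0198, −0.0172 and −0.0183. It changed the split of calls from 4411 higher and 4545 lower to 3354 and 5839 in OE against EV, from 3492 and 4139 to 2486 and 5612 in the interaction, and from 5024 and 5277 to 3643 and 6930 in OE against KD. In EV against NT, IRS1 lost its call without NT replicate 2 (0.25, edgeR adjusted p = 0.0522) or EV replicate 1 (0.25, edgeR adjusted p = 0.0619), and IRS2 without EV replicate 1 (0.32, edgeR adjusted p = 0.0675) or with the GC correction (0.22, edgeR adjusted p = 0.0677).

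No pairing of the samples by replicate number was seen, in a check that is limited. Residuals were deviations from the group mean, so the samples of NT mirror each other, as do those of EV. The pairs below are therefore not independent of each other. Residuals of same-numbered samples had correlations of −0.0443 to 0.0783 over 13 pairs, and those of other pairs −0.081 to 0.063 over 24. With the replicate number as a block, 8 genes passed in OE against EV, KD against NT, the interaction and OE against KD, and 7 in EV against NT, where FOXO1 then passed (0.31, edgeR adjusted p = 0.0246), as it did in OE against KD (−0.23, edgeR adjusted p = 0.0294).

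FGF21 rests on 15 to 101 counts per library, so its changes have wider errors than those of the other 9 genes. The shRNA and overexpression arms differ in vector and, for KD and OE at least, in drug selection, as well as in CPT1A. Any comparison of NT or KD with EV or OE therefore cannot tell these apart.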

Other observations

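The controls of the 2 arms also differed from each other in several of these genes. EV exceeded NT in IRS1 (0.33 ± 0.0758, edgeR adjusted p = 0.00137), IRS2 (0.36 ± 0.096, edgeR adjusted p = 0.00514) and IGFBP2 (0.37 ± 0.0605, edgeR adjusted p = 4.45e-05), beside the larger differences of IGF1R, IGF2R and IGFBP3 given above. The values of INSR (0.15, 95% confidence interval −2.03e-05 to 0.294, edgeR adjusted p = 0.117), FOXO1 (0.31, 0.0583 to 0.552, edgeR adjusted p = 0.0513) and FOXO3 (0.07, −0.0528 to 0.191, edgeR adjusted p = 0.399) did not pass.

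Compared directly, OE exceeded KD most in IGFBP3 (2.53 ± 0.119, edgeR adjusted p = 8.85e-15) and FGF21 (2.42 ± 0.192, edgeR adjusted p = 1.09e-10), followed by IRS2 (1.21 ± 0.0817, edgeR adjusted p = 6.67e-12) and IRS1 (0.98 ± 0.0627, edgeR adjusted p = 2.44e-12). IGFBP2 was 0.16 higher in OE (edgeR adjusted p = 0.00508), and 0.03 higher when scaled by library totals alone (edgeR adjusted p = 0.507). FOXO1 (−0.23, edgeR adjusted p = 0.0556) and FOXO3 (−0.05, edgeR adjusted p = 0.452) did not pass in this comparison.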
